A study of Mus musculus with 3 samples.

Results

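Fc receptors are the proteins by which leukocytes bind the constant part of antibodies. The 7 mouse genes described here are the activating IgG receptors Fcgr1, Fcgr3 and Fcgr4, the shared signalling chain Fcer1g, the inhibitory IgG receptor Fcgr2b, the neonatal receptor Fcgrt and the low-affinity IgE receptor Fcer2a. They were taken by gene symbol from a table of 57561 rows, and each symbol had 1 row. All 7 passed a minimum mean of 1 FPKM (fragments scaled to exon length and library size) over the libraries.

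RNA sequencing was done on myeloid-derived suppressor cells (MDSCs), a class of immature cell known for holding back T cell responses. Per the labels, all libraries came from total RNA of C57BL/6 femur marrow that had been kept in culture with GM-CSF and IL-6 for 4 days. The 3 libraries were wild type (WT), lnc57Rik-/- (lnc57Rik KO) and lncGM1082-/- (lncGM1082 KO), each knockout lacking a long noncoding RNA, with 1 library per genotype. The growth protocol names only C57BL/6 and lnc57Rik KO mice, the design wording leaves the number of samples per genotype unclear, and the sources used here do not give the age or pooling of animals or how the alleles were made.

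The libraries held 18485092 fragments in WT, 17593431 in the lnc57Rik KO library and 18280434 in that of the lncGM1082 KO, as recovered from the FPKM values. With 1 library per genotype there was no replicate check and no test, and the 95% intervals below cover counting error only and no variation between animals or cultures. A row at the position of Arhgap33os, of which Gm1082 is a RefSeq synonym (GRCm38, chr7:30515122-30522193, plus strand), stood at 0.0204 FPKM in WT, 0 in the lnc57Rik KO library and 0.0620 in that of the lncGM1082 KO, too low to check the lncGM1082 label, and 0 symbols matched lnc57Rik. All 12 listed MDSC markers were detected in each library, with a summed level, mostly S100a8 and S100a9, of 9640, 8649 and 6850 FPKM in WT, lnc57Rik KO and lncGM1082 KO. Of the 11 measured, 3 were lower in the lnc57Rik KO than in WT by a log2 fold of 1 or more. They were Arg1 (625.5 to 261.6 FPKM), Nos2 (886.4 to 425.9) and Ly6g (73.4 to 21.1), and over all rows the share was 1.53%. In the lncGM1082 KO 1 of the 11 was lower by as much, Ly6g (33.9 FPKM), beside 0.946% of all rows. The summed level of 16 B lineage markers was 21.1, 410.9 and 29.8 FPKM in the same order, so the lnc57Rik KO library stood apart. In bulk RNA, fewer cells of a type and less RNA per cell cannot be told apart.

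The activating receptors bind immune complexes on the cell surface but signal through the Fcer1g homodimer, whose cytoplasmic tail carries an immunoreceptor tyrosine-based activation motif (ITAM). Src family kinases phosphorylate its tyrosines, and Syk docks there. Fcgr2b, the only inhibitory IgG receptor of the mouse, carries an inhibition motif (ITIM) in its own tail and recruits the lipid phosphatase encoded by Inpp5d. In myeloid cells the balance of both kinds sets the threshold for phagocytosis and cytokine release.

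The motifs that divide the receptors are shown first, as coding sequence with the tyrosine codons in capitals. The Fcer1g motif covers codons 65 to 79 of 86 and was split over exons 4 and 5 (GRCm38, chr1:171229889-171230072, minus strand). The Fcgr2b motif covers codons 317 to 322 of 340 in exon 8 (chr1:170961071-170961088, minus strand).

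Fcer1g activation motif: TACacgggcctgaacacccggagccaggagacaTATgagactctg
Fcgr2b inhibition motif: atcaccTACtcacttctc

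The activation motif was found in Fcer1g and in 0 of the other 6 coding sequences. In translation, the pattern of the inhibition motif also matched in Fcgr1, Fcgr4, Fcer1g and Fcgrt, so a match by itself does not mark an inhibitory receptor.

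Fcgr3 and Fcgr2b are near-identical in the part that binds IgG. Their coding sequences matched in 659 of 787 aligned bases (83.7%), and in 250 of 255 bases (98%) of Fcgr3 exon 4, whereas other pairs of the 4 IgG receptors matched at 58.7% to 63.3%. The longest stretch without a difference was 129 bases, over exons 3 and 4 of both genes (Fcgr2b chr1:170966674-170968081, Fcgr3 chr1:171054167-171057792, both on the minus strand). It is shown because fragments that lie in it cannot be assigned to either gene.

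Fcgr2b and Fcgr3 identical stretch: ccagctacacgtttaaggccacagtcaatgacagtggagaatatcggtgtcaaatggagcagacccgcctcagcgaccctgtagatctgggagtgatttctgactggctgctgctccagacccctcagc

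Of the 1298 windows of 50 bases in the principal Fcgr3 transcript, 166 (12.8%) also occurred in Fcgr2b, where they made up 4.75% of 3495 windows. How the authors counted reads that fit both is not stated in any source used here, so the levels of these 2 genes carry that uncertainty. Over all other genes, 436 (12.5%) of the Fcgr2b windows were shared, most often with Cplx2, Gm47409, Rab3c and Gm15807. The same uncertainty holds for reads of those windows. Of the Fcer2a windows 39 (1.78%) were shared with other genes. Fcgr1, Fcgr4, Fcer1g and Fcgrt shared 0 such windows with any other gene.

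The receptors were expressed at very different levels, and 4 of them sit close together on chromosome 1. Fcgr2b (ENSMUSG00000026656, chr1:170958617-170976547, minus strand), Fcgr4 (ENSMUSG00000059089, chr1:171018920-171029761, plus strand) and Fcgr3 (ENSMUSG00000059498, chr1:171051174-171064935, minus strand) lie within 106319 bases of GRCm38. Fcer1g (ENSMUSG00000058715, chr1:171229572-171234365, minus strand) follows further along. Fcgr1 (ENSMUSG00000015947, chr3:96282909-96293969, minus strand), Fcgrt (ENSMUSG00000003420, chr7:45092990-45103851, minus strand) and Fcer2a (ENSMUSG00000005540, chr8:3681737-3694175, minus strand) lie elsewhere. In each library the order per exon length was Fcer1g, Fcgr3, Fcgr2b, Fcgr4 and Fcgr1, followed by Fcgrt and Fcer2a. In WT the last 2 did not differ beyond counting error (FPKM ratio of Fcgrt to Fcer2a 1.25, 95% interval 0.863 to 1.81), nor did they in the lncGM1082 KO (Fcer2a to Fcgrt 1.05, 0.714 to 1.56), whereas Fcer2a stood above Fcgrt in the lnc57Rik KO (3.13, 2.41 to 4.11).

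**Figure D1:**
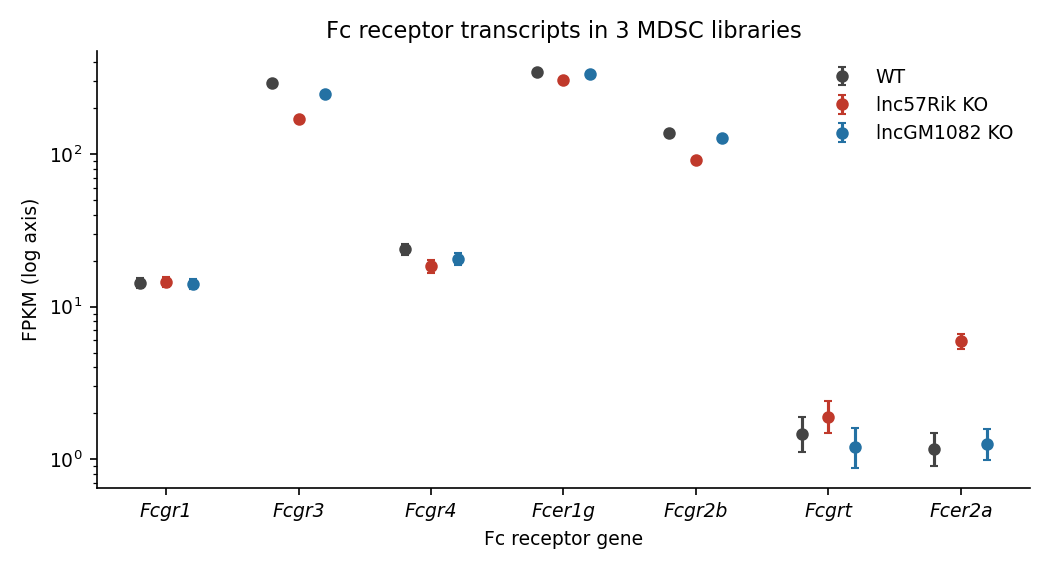
FPKM of the 7 Fc receptor genes in the WT, lnc57Rik KO and lncGM1082 KO libraries on a log axis, with 1 point per library and bars for the 95% counting interval. Fcer1g, Fcgr3 and Fcgr2b lie between 91.9 and 342.5 FPKM, while Fcgrt and Fcer2a lie between 1.17 and 5.92 FPKM.

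Among the activating receptors, Fcgr3 and Fcgr4 were lower in the lnc57Rik KO library and Fcgr1 was not. Fcgr3, the low-affinity receptor that binds IgG immune complexes on most myeloid cells, stood at 290.1 FPKM in WT (9308 fragments), 168.9 in the lnc57Rik KO library (5159) and 248.7 in that of the lncGM1082 KO (7891). WT was the highest library and the lnc57Rik KO the lowest. The FPKM ratio to WT was 0.582 (95% interval 0.563 to 0.603) in the lnc57Rik KO library and 0.857 (0.832 to 0.883) in that of the lncGM1082 KO. The log2 fold on FPKM + 1, the scale of all log2 folds here, was -0.78 and -0.22, short of the size of 1 used to call a row.

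Fcgr4, a receptor for IgG2a and IgG2b with intermediate affinity, stood at 23.7 FPKM in WT (551 fragments), 18.5 in the lnc57Rik KO library (408) and 20.5 in that of the lncGM1082 KO (471). WT was again the highest library, with ratios to it of 0.778 (0.683 to 0.886) and 0.864 (0.763 to 0.979). Between the knockouts the Fcgr4 ratio of lncGM1082 KO to lnc57Rik KO was 1.11 (0.971 to 1.27), which includes 1.

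Fcgr1, the high-affinity receptor for monomeric IgG, stood at 14.3 FPKM in WT (682 fragments), 14.5 in the lnc57Rik KO library (662) and 14.1 in that of the lncGM1082 KO (667). Its ratio to WT was 1.02 (0.915 to 1.14) and 0.989 (0.888 to 1.10), and no library stood apart beyond counting error. Its direction in the lnc57Rik KO turned from 0.03 to -0.07 (log2) under median ratio scaling.

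The signalling chain Fcer1g moved less than Fcgr3. It stood at 342.5 FPKM in WT (5534 fragments), 306.5 in the lnc57Rik KO library (4713) and 333.2 in that of the lncGM1082 KO (5323), and ranked 76, 83 and 73 among 20649 Ensembl rows. The ratio to WT was 0.895 (0.861 to 0.930) in the lnc57Rik KO library and 0.973 (0.937 to 1.01) in that of the lncGM1082 KO. Fcer1g per summed activating receptor FPKM was therefore 1.04 in WT, 1.52 in the lnc57Rik KO library and 1.18 in that of the lncGM1082 KO. The lnc57Rik KO value was 1.45 times that of WT (1.38 to 1.53), and the lncGM1082 KO value 1.13 times (1.07 to 1.18).

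The inhibitory receptor Fcgr2b stood at 137.4 FPKM in WT (14711 fragments), 91.9 in the lnc57Rik KO library (9365) and 127.4 in that of the lncGM1082 KO (13487). The libraries took the same order as for Fcgr3. The ratio to WT was 0.669 (0.652 to 0.686; log2 fold -0.58) in the lnc57Rik KO library and 0.927 (0.906 to 0.949; -0.11) in that of the lncGM1082 KO. A NONCODE row on the opposite strand, which overlaps Fcgr2b by 3175 bases (NONMMUG047618.2, chr1:170973373-170979017), stood at 12.9, 6.29 and 12.8 FPKM in WT, lnc57Rik KO and lncGM1082 KO. The overlap is of gene spans, introns included, and lies at the start of Fcgr2b. Since no source used here states the strand setting of the counting, it is unknown to which row reads from within the overlap were counted.

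**Figure D2:**
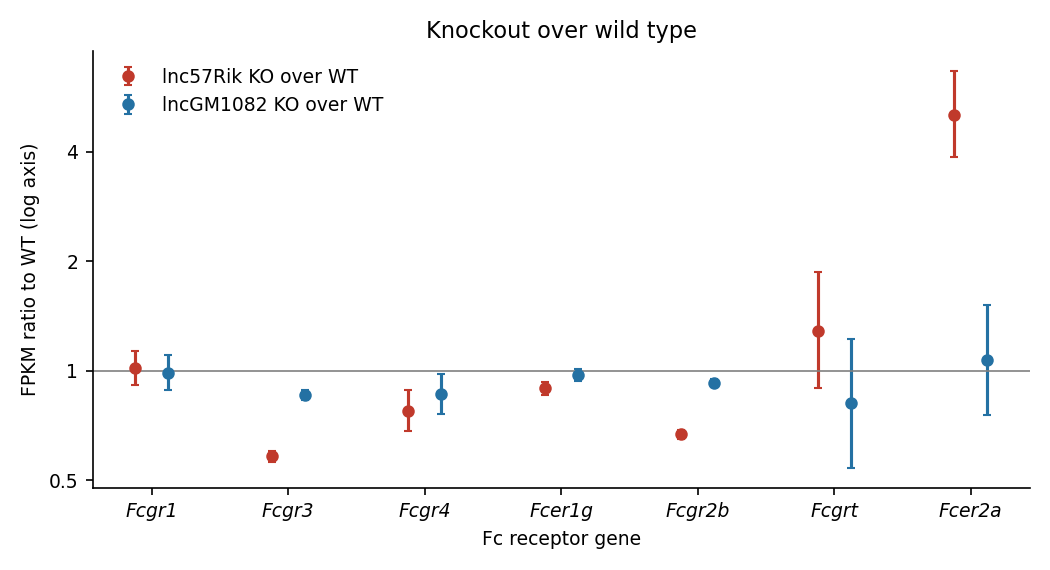
FPKM ratios of each Fc receptor gene in the knockout libraries to WT on a log axis, with bars for the 95% counting interval. Fcgr3 (0.582) and Fcgr2b (0.669) lie furthest below 1 and Fcer2a (5.05) furthest above 1 in the lnc57Rik KO against WT.

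The ratio of activating to inhibitory receptors, the sum of Fcgr1, Fcgr3 and Fcgr4 over Fcgr2b, was 2.39 in WT (95% counting interval 2.33 to 2.45), 2.20 in the lnc57Rik KO library (2.13 to 2.27) and 2.22 in that of the lncGM1082 KO (2.16 to 2.28). It was highest in WT, and the knockouts overlapped each other. Relative to WT it was 0.920 (0.883 to 0.959) and 0.931 (0.898 to 0.966), so the summed activating receptors and Fcgr2b were lower by similar factors in the lnc57Rik KO. The ratio of lncGM1082 KO to lnc57Rik KO was 1.01 (0.971 to 1.06).

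Fcgr3 shared this pattern, whereas Fcgr1 and Fcgr4 per Fcgr2b were higher in the lnc57Rik KO than in WT. Fcgr3 supplied 88.4%, 83.7% and 87.8% of the activating FPKM in WT, lnc57Rik KO and lncGM1082 KO, and so set the sum. Fcgr3 per Fcgr2b was 2.11, 1.84 and 1.95 in that order. Without Fcgr3, whose reads could be shared with Fcgr2b, Fcgr1 and Fcgr4 per Fcgr2b came to 0.276, 0.359 and 0.272. That ratio was 1.30 times WT in the lnc57Rik KO (1.19 to 1.42), the opposite direction to the full sum, and 0.983 times WT (0.899 to 1.07) in the lncGM1082 KO. Fcgr1 per Fcgr2b went from 0.104 in WT to 0.158 in the lnc57Rik KO, 1.52 times (1.37 to 1.70).

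The size of the ratio depended on the gene lengths used. Replacing the length of Fcgr2b alone scales all libraries alike, so the ratio of each knockout to WT cannot change with it. With other lengths for the activating receptors, or without any length, that ratio lay between 0.910 and 0.934. The table divides by 5790 summed exon bases of Fcgr2b, whereas transcript Fcgr2b-204, of 1578 bases, has the identical coding sequence of 1023 bases as Fcgr2b-201, of 3544 bases. With the length of Fcgr2b alone replaced, the ratio was 1.46, 1.34 and 1.36 in WT, lnc57Rik KO and lncGM1082 KO for Fcgr2b-201, and 0.650, 0.599 and 0.606 for Fcgr2b-204. With principal transcript lengths for the activating receptors too, which shortens Fcgr3 from 1736 to 1347 bases, it was 1.83, 1.67 and 1.71 with Fcgr2b-201, and 0.817, 0.743 and 0.759 with Fcgr2b-204. Whether transcripts of the activating receptors outnumber those of Fcgr2b was therefore not settled by these values, and this choice of lengths was made after the data were seen. The values are of RNA, and receptor protein was not measured here.

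**Figure D3:**
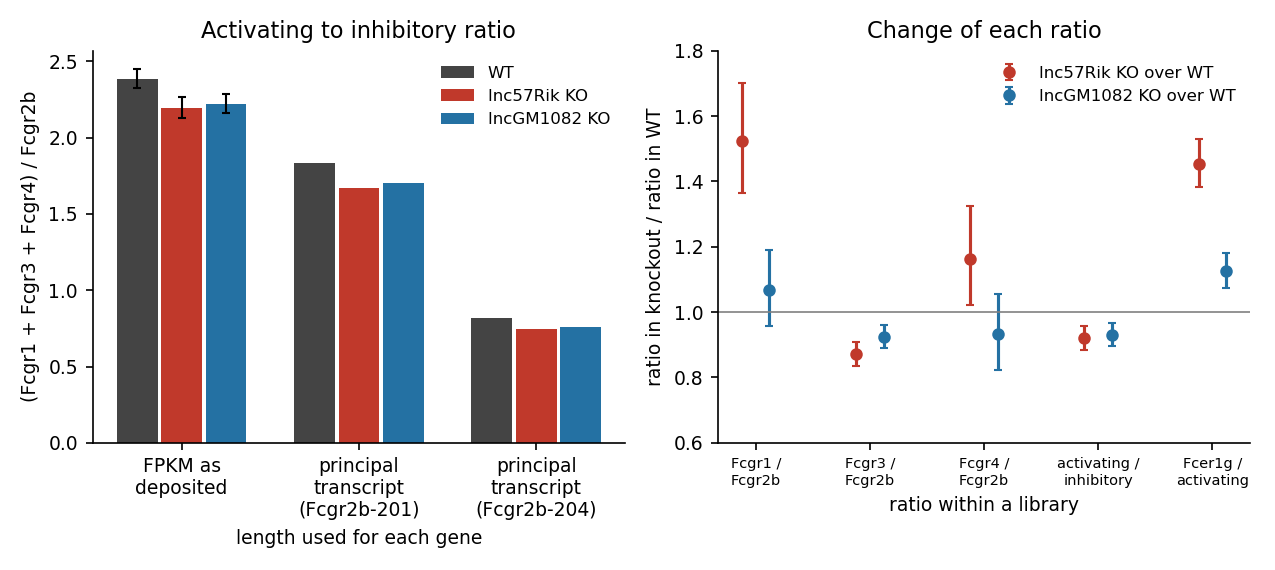
Left, activating to inhibitory ratio by library with 3 choices of gene length, with error bars for the 95% counting interval on the ratio as deposited (2.39 in WT, 2.20 in the lnc57Rik KO library and 2.22 in that of the lncGM1082 KO). Right, each ratio within a library divided by that of WT, with the same intervals, where Fcgr1 over Fcgr2b in the lnc57Rik KO is highest at 1.52.

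Of the remaining receptors, Fcer2a was the only one of the 7 genes past the rule of size, a log2 fold of 1 or more in either direction. Fcer2a, a C-type lectin that binds IgE and is known above all from B cells, stood at 1.17 FPKM in WT (67 fragments), 5.92 in the lnc57Rik KO library (322) and 1.26 in that of the lncGM1082 KO (71). The lnc57Rik KO library was the high one and the others lay together. The ratio to WT was 5.05 (3.87 to 6.67; log2 fold 1.67) in the lnc57Rik KO library and 1.07 (0.757 to 1.52) in that of the lncGM1082 KO. The call was lost with a pseudocount of 5 (log2 fold 0.82), and with a minimum mean of 5 FPKM, which Fcer2a does not reach. In the lnc57Rik KO against WT, 14 of 14 measured B lineage markers were past the rule of size upward, beside 3.39% of all rows. Among them were Ighm (6.97 to 140.7 FPKM) and Cd79b (2.19 to 53.5), and no listed B marker was at 0 in any library. The part of these cells in the Fcer2a value was not tested.

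Fcgrt, which carries IgG and albumin out of the endosome together with the B2m chain, was low in every library. It stood at 1.47 FPKM in WT (57 fragments), 1.89 in the lnc57Rik KO library (70) and 1.20 in that of the lncGM1082 KO (46). Neither ratio to WT, 1.29 (0.897 to 1.86) and 0.816 (0.541 to 1.22), excluded 1. The ratio of lncGM1082 KO to lnc57Rik KO was 0.632 (0.426 to 0.931), which excludes 1 for counting error only. Its log2 fold of -0.40 was short of the rule of size, and such intervals excluded 1 for 56.6% of genes in that comparison.

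Past the rule of size stood 1 of the 7 genes in the lnc57Rik KO against WT, beside 4.92% of 22202 rows in either direction and 3.39% upward, and 0 of 7 in the lncGM1082 KO against WT, beside 1.81%. Between the knockouts it was 1 of 7 (Fcer2a), beside 4.37%. The counting interval excluded 1 downward for 4 of 7 genes in the lnc57Rik KO (Fcgr3, Fcgr2b, Fcgr4 and Fcer1g), beside 16.9% of 11014 genes, and upward for 1, beside 39.2%. In the lncGM1082 KO it excluded 1 downward for 3 of 7 (Fcgr3, Fcgr2b and Fcgr4), beside 17.1%, and between the knockouts for 5 of 7, beside 56.6%. Such an interval narrows with depth, and Fcgr3, Fcgr2b and Fcer1g held 4713 to 14711 fragments per library. The shares over all genes were not matched for depth, so they are no like-for-like base. In the lnc57Rik KO, 676 rows (3.04%) had a lower log2 fold than Fcgr3 and 1349 (6.08%) a lower one than Fcgr2b. The median log2 fold of the 7 genes was -0.16 and -0.11 against WT, beside 0.07 and 0.01 over all rows. The comparisons share the WT library, so their values are not independent of each other.

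The list of related adaptors and partner receptors held 1 gene past the rule of size. Of 13 adaptors and partner receptors, 9 were measured (mean of at least 1 FPKM), and in the lnc57Rik KO 0 were past it upward and 1 downward, beside 1.53% of all rows. That gene was Pirb, an inhibitory receptor for class I molecules, at 84.0 FPKM in WT, 37.3 in the lnc57Rik KO library and 63.2 in that of the lncGM1082 KO. Short of the rule, the C-type lectin Clec4d, which signals through Fcer1g, stood at 369.1, 188.7 and 363.8 FPKM, and Tyrobp, an adaptor with an ITAM of its own, at 295.7, 185.4 and 254.3. The median log2 fold of the list was -0.51 in the lnc57Rik KO library and -0.16 in that of the lncGM1082 KO.

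The kinases and adaptors below the motif were mostly within the rule of size. Of 27 measured, 2 were past it upward in the lnc57Rik KO, beside 3.39% of all rows. They were Blnk (2.79 to 9.43 FPKM), an adaptor of B cell receptor signalling, and the Src family kinase Fyn (1.44 to 4.61). Syk stood at 97.1 FPKM in WT, 105.8 in the lnc57Rik KO library and 110.7 in that of the lncGM1082 KO. The Src family kinase Lyn stood at 95.0, 69.6 and 84.8 FPKM in the same order. In the lncGM1082 KO 0 of 27 were past the rule, beside 1.81% of all rows in either direction. The 13 inhibitory signalling genes had 0 past it in either knockout, with a median log2 fold of 0.21 and 0.03, and Inpp5d, the phosphatase downstream of Fcgr2b, stood at 26.8, 33.0 and 28.4 FPKM.

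Other Fc receptors did not move in a common direction. Of 7 measured, 3 were past the rule upward in the lnc57Rik KO, beside 3.39% of all rows, namely the IgM receptor Fcmr (0.654 to 19.3 FPKM), Fcrla (0.620 to 8.47) and Fcrl1 (0.638 to 3.88), all known from B cells. Fcrlb stood at 78.4, 48.9 and 75.6 FPKM in WT, lnc57Rik KO and lncGM1082 KO, with a log2 fold of -0.67 in the lnc57Rik KO. Fcer1a, the binding chain of the high-affinity IgE receptor of mast cells and basophils, stood at 1.25, 1.37 and 3.07 FPKM. Ms4a2, another chain of that receptor, was highest in the lnc57Rik KO instead, at 2.98, 5.42 and 3.31 FPKM.

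Markers of other cells also passed the rule of size. In the lnc57Rik KO against WT, 6 of 16 neutrophil markers were past the rule downward, beside 1.53% of all rows. They were Ly6g, Cxcr2, Retnlg, Mmp8, Mmp9 and Csf3r. The list did not move as a whole, with a median log2 fold of -0.08. Another 6 of the 16 had a log2 fold above 0, among them Cebpe (40.5 to 59.4 FPKM) and Mpo (58.1 to 78.5). Of 15 monocyte and macrophage markers 3 were past it downward and 2 upward. Upward, beside 3.39% of all rows, were also 5 of 11 dendritic cell, 4 of 7 eosinophil and 3 of 9 basophil and mast cell markers. Of 10 listed NK and T cell markers only Cd2 was measured, and it was past the rule upward (0.0932 to 2.87 FPKM). The others had a mean below 1 FPKM, among them Cd3e (0.0530 to 0.181) and Ncr1 (0.105 to 0.775). Summed neutrophil levels were 11411, 10817 and 7570 FPKM in WT, lnc57Rik KO and lncGM1082 KO, and summed monocyte and macrophage levels were 1814, 1475 and 1873. Summed eosinophil levels were 278.2, 449.4 and 325.2 FPKM in that order, and those of basophils and mast cells 104.4, 188.2 and 114.7. Summed dendritic cell levels were 856.4, 1462 and 780.4 FPKM in the same order. In the lncGM1082 KO 2 of 16 neutrophil markers were past the rule downward, beside 0.946% of all rows. So was 1 of 15 monocyte and macrophage markers, Fn1 (215.5 to 82.2 FPKM). Upward was 1 of 11 dendritic cell markers, Ccr7 (29.0 to 64.2 FPKM), beside 1.81% of all rows in either direction. The part of these cells in the Fcgr3 and Fcgr2b values was not tested.

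**Figure D4:**
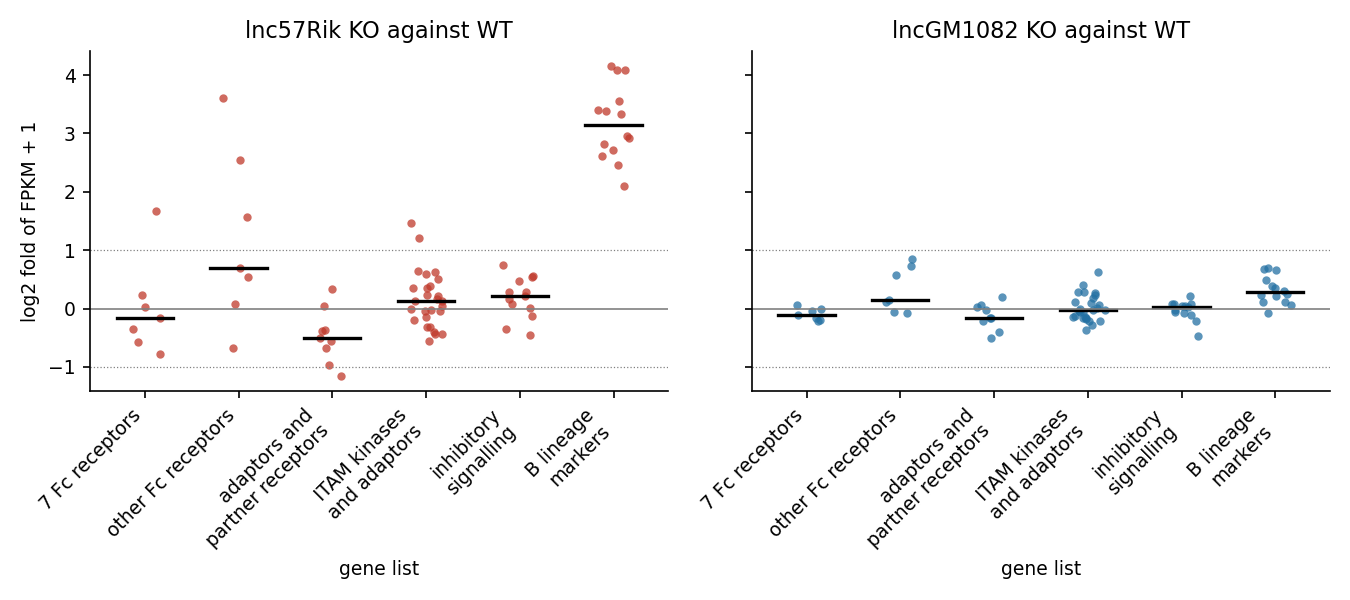
Log2 folds (FPKM + 1) against WT of the 7 Fc receptors, 4 pathway lists and the B lineage markers, with 1 point per gene with a mean of at least 1 FPKM, a black line at the median and dotted lines at the rule of size. B lineage markers have a median of 3.15 in the lnc57Rik KO library and 0.28 in that of the lncGM1082 KO.

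The genes whose pair of folds against WT came nearest to Fcgr3 were Pid1 (at a distance of 0.0141 on the log2 scale), Hnmt and March1, and 18 of 6978 genes lay within 0.1. Among those nearest to Fcgr2b were Ifitm2 (222.2, 149.3 and 207.1 FPKM) and Upp1, with 44 within 0.1. Fcgr1 had 885 genes within 0.1, Fcer1g 415 and Fcgr4 124. Both folds use the same WT library.

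The promoters of Fcgr1, Fcgr3 and Fcgr2b are shown because, of the IgG receptors, Fcgr3 and Fcgr2b had the lowest ratios to WT in the lnc57Rik KO and Fcgr1 the highest. They run from 250 bases before to 50 bases after the start (RefSeq, GRCm38.p6, minus strand), and capitals mark matches to GAGGAA or GGAAGT on the opposite strand of the printed sequence. Both are overlapping parts of a site of PU.1, a transcription factor of myeloid cells.

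Fcgr1 promoter, chr3:96293920-96294219: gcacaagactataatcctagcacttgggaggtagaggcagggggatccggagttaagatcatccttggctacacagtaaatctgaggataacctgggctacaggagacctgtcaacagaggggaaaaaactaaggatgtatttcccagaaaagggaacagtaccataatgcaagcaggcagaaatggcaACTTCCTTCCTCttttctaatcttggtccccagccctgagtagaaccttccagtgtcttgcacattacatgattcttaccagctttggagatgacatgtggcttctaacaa
Fcgr3 promoter, chr1:171059354-171059653: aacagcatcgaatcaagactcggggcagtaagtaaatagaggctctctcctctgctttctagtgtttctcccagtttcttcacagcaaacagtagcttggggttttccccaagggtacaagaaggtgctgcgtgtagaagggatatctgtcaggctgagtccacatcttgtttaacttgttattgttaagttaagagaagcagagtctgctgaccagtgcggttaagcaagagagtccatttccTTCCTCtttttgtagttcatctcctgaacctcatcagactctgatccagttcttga
Fcgr2b promoter, chr1:170976022-170976321: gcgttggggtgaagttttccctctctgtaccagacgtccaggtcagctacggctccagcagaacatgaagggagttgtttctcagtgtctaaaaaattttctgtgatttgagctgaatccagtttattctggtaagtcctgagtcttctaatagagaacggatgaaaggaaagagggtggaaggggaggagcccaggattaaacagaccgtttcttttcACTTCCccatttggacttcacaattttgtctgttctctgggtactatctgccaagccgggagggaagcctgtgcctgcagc

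Of 32851 mouse promoters of this length, 28.3% held GAGGAA and 23.8% GGAAGT on either strand. GAGGAA was found in Fcgr1, Fcgr3 and Fcgr4, and GGAAGT in Fcgr1, Fcgr2b, Fcgr4 and 1 of the Fcer2a entries. Neither was found in the Fcer1g and Fcgrt windows. A match describes the letters only.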

How the data were processed

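The authors deposited 1 table of FPKM per gene with 1 column per library, and neither raw counts nor replicates were used here. Bowtie 0.12.2 and the build mm9 are named, with no role, in the submitters' processing notes. Row positions match GRCm38 instead: of 20634 Ensembl rows found in GENCODE M21 (GRCm38), 19570 had the identical position. The counting software, strand setting, treatment of shared reads and any batch are not stated in those sources.

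Fragments were recovered as FPKM times summed exon bases times the library total. Under 20 fragments, 99.06% of values were whole to within 0.05 where a gene has 1 transcript, against 93.4% where it has more. Intervals of FPKM ratios are exact (Clopper-Pearson, level 95%), and those of summed ratios are log-normal. Log2 folds used a pseudocount of 1, which understates low genes. Rows with a mean of at least 1 FPKM were compared, and a row was called past an absolute log2 fold of 1.

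The members and lists were chosen with earlier results of these data known. Named genes were all 7 receptors, the list members past the rule of size and up to 4 per list by absolute log2 fold, and the 3 nearest patterns per receptor with a mean of at least 5 FPKM. Syk, Lyn, Inpp5d and Fcrlb were named for their role, after their values were seen. Some genes that the rule names are not reported here. Alternatives were pseudocounts of 0.1 and 5, 2 other scalings, 2 other minimum levels and other forms of the receptor ratio, of which the lengths were chosen after seeing the data. Sequences came from GENCODE M21 transcripts and RefSeq promoters. The steps ran in Python 3.11.15 with pandas 2.3.3, scipy 1.17.1 and biopython 1.88. Recovery of the library totals and the calling of large folds were tested on simulated data. The intervals, the receptor ratios and the sequence steps were not.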

Additional observations from a re-analysis of the deposited data

How the results depend on the processing

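No paired analysis was possible because each genotype had 1 library, and for the same reason no replicate could be left out. Of 105 values of the log2 folds of the receptor genes under other settings, 95 moved little, 10 moved by more than their counting error and 0 of the called folds changed sign. Fcgr1, which was not called, changed sign under median ratio scaling (-0.07 in the lnc57Rik KO against WT, 0.04 in the lncGM1082 KO against the lnc57Rik KO). The log2 fold of Fcer2a in the lnc57Rik KO was 2.24 with a pseudocount of 0.1 and 0.82 with 5, so it is not past the rule of size there. The count of receptor genes past the rule fell from 1 to 0 in the lnc57Rik KO against WT, and in the lncGM1082 KO against the lnc57Rik KO, with a pseudocount of 5 and with a minimum mean of 5 FPKM. Rows past the rule numbered 1092 in the lnc57Rik KO against WT, 402 in the lncGM1082 KO against WT and 971 between the knockouts. In that order they became 2119, 1090 and 1980 with a pseudocount of 0.1, 225, 41 and 182 with 5, and 356, 97 and 312 with a minimum mean of 5 FPKM.

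The activating to inhibitory ratio, in WT, lnc57Rik KO and lncGM1082 KO, was 2.28, 2.04 and 2.11 with Fcgr3 and Fcgr4 only, 0.276, 0.359 and 0.272 with Fcgr1 and Fcgr4 only, 1.83, 1.67 and 1.71 per base of principal transcripts with Fcgr2b-201, 0.817, 0.743 and 0.759 with Fcgr2b-204 in its place, 1.46, 1.34 and 1.36 with the length of Fcgr2b-201 for Fcgr2b alone, 0.650, 0.599 and 0.606 with that of Fcgr2b-204 alone, and 0.717, 0.665 and 0.669 without a length. Of these, the ratio with Fcgr1 and Fcgr4 only was not lower in the lnc57Rik KO than in WT. The settings that replace the length of Fcgr2b alone scale all libraries alike, so they could not change that direction. List medians moved little in 59 of 72 settings and moved in 13. At 46 to 70 fragments, the depth limits Fcgrt, whose differences from WT were not detectable.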
